A study of Mus musculus with 4 samples.

Results

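Interleukins and their receptors were examined as 1 gene family in nuclei of photothrombotic (PT) brain lesions and of the surrounding parenchyma. Members were gene rows whose symbol began with Il and a digit, without Il34, and that had at least 20 unique molecular identifiers (UMIs, the count of distinct transcripts) over the 4 matrices. Of 83 matching rows among 33696 gene rows, 62 were members, and 6 had no UMI at all. The members just inside the minimum were Il36g with 24 UMIs, Il22 with 25 and Il22b with 36, and those just outside were Il17a with 19 and Il10 and Il2 with 14 each. Il22 and Il22b are near-identical copies, so reads of one may have been counted for the other.

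Interleukins are secreted signals through which immune cells, stromal cells and neural cells act on each other, and most of their receptors pair a ligand-binding chain with a shared signalling chain. The IL-1 family (Il1a, Il1b, Il18, Il33) signals through receptors that recruit MyD88, whereas the common gamma chain, IL-6, IL-12 and IL-10 families signal through JAK kinases and STAT factors. In injured brain, Il33 is known as a nuclear alarm signal of glia and stromal cells and IL-1 as an early inflammatory signal sensed by endothelium. Il1rapl1 and Il1rapl2 carry the family name but encode synaptic adhesion proteins.

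Nuclei were collected 21 days post-injury (dpi) from mice labelled WT, here the control group, and from Cxcl12-cKO mice. The latter paired floxed Cxcl12 with Col1a2-creER, a Cre recombinase under a promoter active in fibroblasts that tamoxifen switches on. Each group was 1 male and 1 female mouse pooled into 1 library, in which lesion and parenchyma nuclei carried separate tags and were mixed by the authors at fixed shares. With 1 library for each genotype there was no test between genotypes, and every interval below covers counting error only. The libraries held 21743 nuclei after filtering. Lesional nuclei had medians of 2962 and 2975 UMIs in the control-labelled and the Cxcl12-cKO-labelled library, against 15915 and 16648 in the parenchyma. The check of the targeted gene did not show the loss that the labels name. Cxcl12 in lesional fibroblast-like nuclei stood at 108 and 217 CPM in that order, a log2 ratio of 1.01 (95% interval 0.92 to 1.10). CPM are counts of a gene per summed UMIs of the class, scaled to the usual common total. Such sums do not tell whether the floxed allele had recombined, and the reason for the higher value was not tested. The libraries are therefore called by their labels throughout.

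Levels were read as CPM of the summed UMIs of a cell class, named "-like" after the markers that defined it. Member genes were left out of clustering. CPM were not scaled to gene length and are compared within a gene only. Pairs of values give the control-labelled library first. In the lesion 10 classes held at least 50 nuclei in both libraries. Among 39 members with at least 10 UMIs in their highest class in both libraries, 33 had the same highest class in both (84.6%, against a background of 71% over 11688 genes). For 10 members (25.6%, against 6.86% over the same genes) that class was at least 4 times the next in both libraries. All 10 belonged to the T-cell-like or the dendritic-like class, as the heat map of levels by class shows. The highest class and the rule of 4 times were read from CPM alone. The interval of the ratio to the next class was not used, and for some members it included an equal level.

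**Figure D1:**
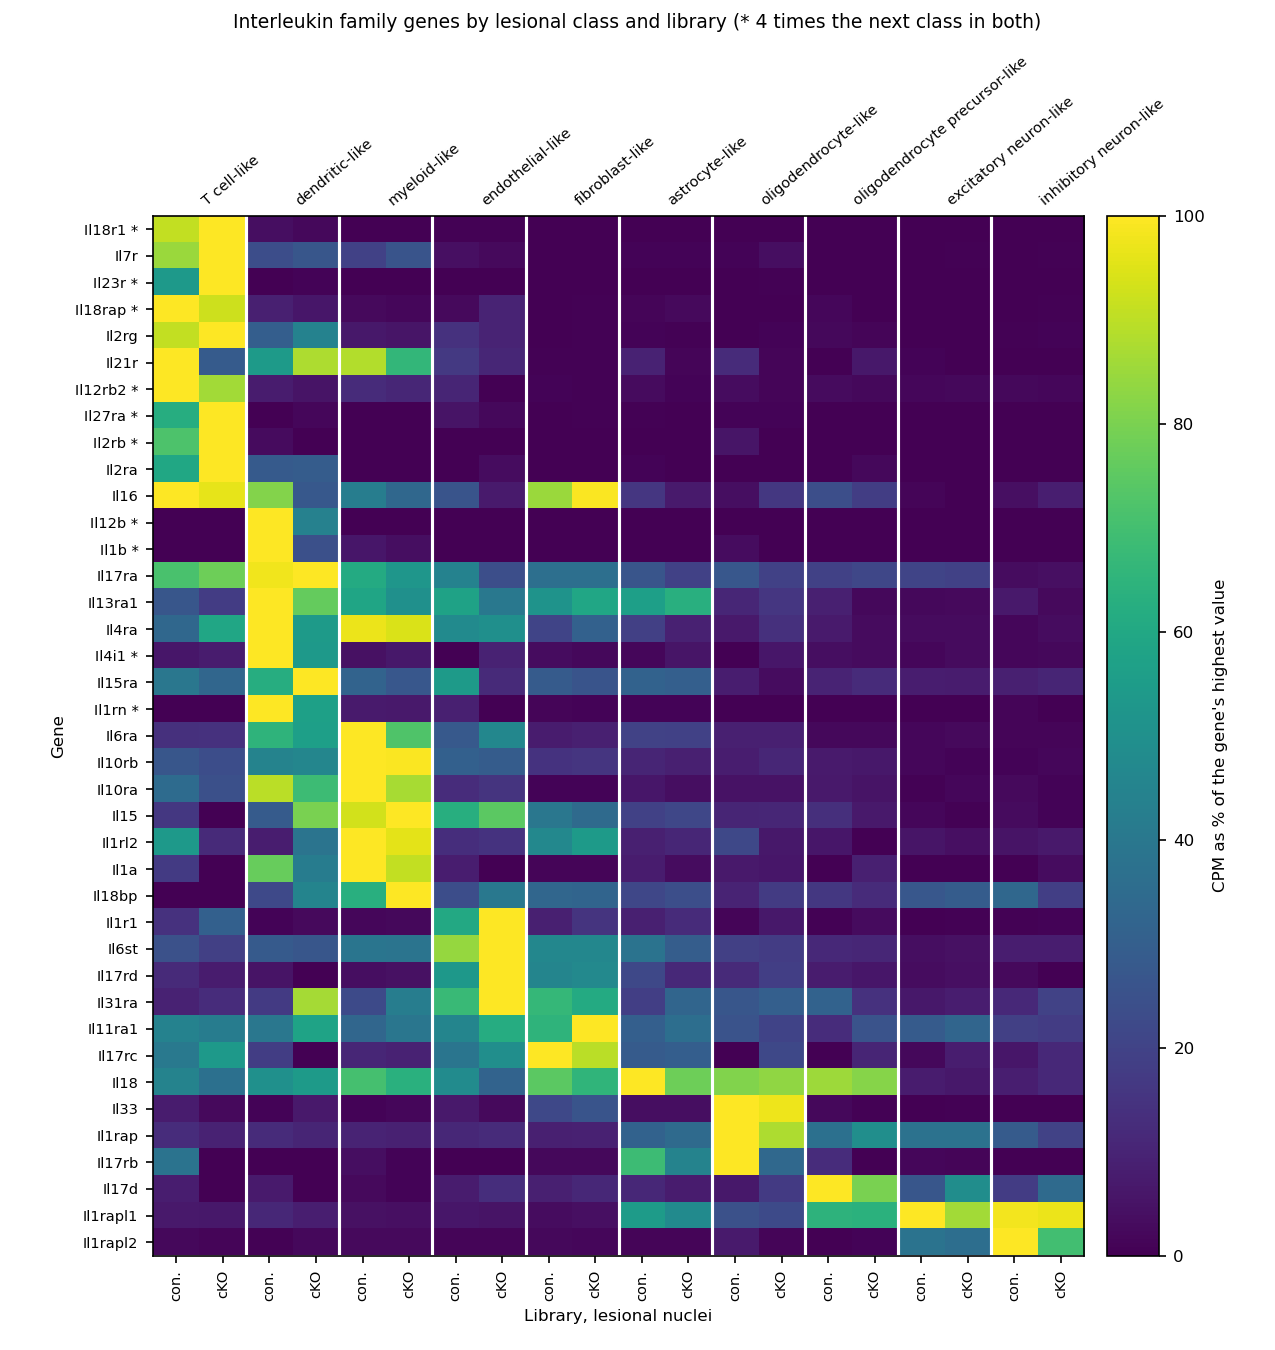
CPM of the 39 members with enough UMIs (vertical axis) in 10 lesional classes of the control-labelled (con.) and Cxcl12-cKO-labelled (cKO) library, each as a percent of the gene's highest value. The 9 members whose highest class is T-cell-like in both libraries stand at the top with Il21r and Il16, whose highest class differs between libraries, and 10 members marked with an asterisk exceed the next class at least 4 times in both libraries.

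T-cell-like nuclei, of which the libraries held 124 and 105, were the highest class of 9 members in both libraries, all of them receptor chains. Of the other common gamma chain receptors, Il15ra was highest in dendritic-like nuclei, and Il4ra and Il21r had different highest classes in the libraries. In T-cell-like nuclei the T cell marker list stood at 4301 and 4175 CPM, the NK cell list at 307 and 294 CPM, the myeloid list at 2082 and 1673 CPM and the fibroblast list at 1572 and 834 CPM. The part of those other markers in the T-cell-like levels was not tested. Il18r1, the ligand-binding chain of the IL-18 receptor, reached 554 CPM (465 to 655) and 609 CPM (503 to 732), and its signalling partner Il18rap 162 and 150 CPM. The next class for Il18r1, dendritic-like nuclei, was 25.5 and 49.4 times lower. Il18r1 UMIs occurred in 50.8% and 56.2% of T-cell-like nuclei (exact intervals 41.7 to 59.9% and 46.2 to 65.9%), against 0.18% and 0.25% of fibroblast-like nuclei, whose median depth was higher (3084 and 3109 UMIs against 1364 and 1416).

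Il23r, the specific chain of the IL-23 receptor found on type 17 lymphocytes, stood at 291 CPM (228 to 367) and 540 CPM (440 to 656) in T-cell-like nuclei and was carried by 17.7% and 33.3% of them. Thinned to 1000 UMIs, these shares were 15.3% (8.83 to 24.0%) and 28.4% (19.3 to 39.0%). The Il23r intervals of CPM did not overlap between the libraries, but those of the thinned shares did, and the ratio did not reach 2-fold. The share of all genes whose CPM intervals lay apart in this class was not computed. Il12rb2, the IL-12-specific chain of type 1 lymphocytes, was at 93.0 and 80.2 CPM, and Il27ra at 93.0 and 150 CPM. The interleukin-2 receptor chains Il2rb (84.9 and 118 CPM), Il2ra (60.6 and 102 CPM) and Il2rg (121 and 134 CPM) had the same highest class.

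Il7r, the IL-7 receptor chain that T cells need for survival, was highest in T-cell-like nuclei at 445 CPM (365 to 536) and 524 CPM (425 to 638). It was next in dendritic-like nuclei (123 and 141 CPM) and in myeloid-like nuclei (101 and 137 CPM). Within the myeloid-like class Il7r differed by subcluster, with 226 and 258 CPM in the border-associated-macrophage-like subcluster and 4.80 and 16.7 CPM in the homeostatic-microglia-like subcluster. These subclusters were coarse, cut at Leiden resolution 0.25, and their names rested on 3 and 5 raised markers in that order. No subcluster met the name of a marker list for scar-associated macrophages. In fibroblast-like nuclei Il7r was at 1.24 and 1.95 CPM.

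Dendritic-like nuclei (80 and 124) were the highest class of 7 members in both libraries, of which Il12b and Il1b encode interleukins. For Il17ra, Il13ra1 and Il15ra the interval of the ratio to the next class included an equal level in at least 1 library. Il12b, the shared subunit of IL-12 and IL-23, was at 213 CPM (162 to 275) and 93.7 CPM (66.3 to 129) and came from only 5 and 8 nuclei, of which 1 and 4 also had a UMI of Ccr7, a marker of migratory dendritic cells. Il1b was at 203 CPM (153 to 263) and 49.3 CPM (30.1 to 76.1) in the dendritic-like class and at 12.2 and 7.24 CPM in the myeloid-like class. Il1rn, the IL-1 receptor antagonist, was at 43.4 and 24.7 CPM, and Il4i1, a secreted amino acid oxidase, at 68.7 and 37.0 CPM. Il4i1 shares a strand and bases with Nup62 in the annotation, so its counts may include Nup62 reads. The dendritic-like class was not pure. It was led by genes of antigen presentation such as H2-Eb1, H2-Ab1 and Cd74, its dendritic marker list stood at 514 and 680 CPM with a UMI in 43 and 66 nuclei, and its myeloid marker list at 7544 and 4329 CPM. Its neutrophil marker list held 1771 UMIs in the control-labelled library, 1698 of them in 1 nucleus with no dendritic marker UMI, and 214 in the Cxcl12-cKO-labelled library, 176 of them in 1 nucleus. The first of these nuclei also held 23 of the 56 Il1b UMIs of the class in its library.

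Myeloid-like nuclei (1572 and 2044) were the highest class of 7 members that sense or make signals of macrophages. Only for Il10rb did the interval of the ratio to the next class leave out an equal level in both libraries. Il10rb and Il10ra, the chains of the IL-10 receptor, were at 226 and 224 CPM and at 198 and 172 CPM, the latter close to the 177 and 136 CPM of Il10ra in dendritic-like nuclei. Il6ra, the IL-6-binding chain, was at 262 CPM (246 to 278) and 189 CPM (178 to 201), a log2 ratio of -0.47 (-0.59 to -0.34), and was lower in the Cxcl12-cKO-labelled library in the border-associated-macrophage-like (306 and 201 CPM) and the homeostatic-microglia-like subcluster (254 and 204 CPM). The ligand Il15, which maintains lymphocytes, was at 164 and 176 CPM. Il1a was at 23.6 and 21.4 CPM, Il18bp at 10.3 and 16.4 CPM, and Il1rl2, the IL-36 receptor, at 44.7 and 42.9 CPM. Il1rl2 was higher in the homeostatic-microglia-like (64.0 and 61.2 CPM) than in the border-associated-macrophage-like subcluster (27.8 and 32.4 CPM).

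Il1r1, the signalling receptor for IL-1, was highest in endothelial-like nuclei (161 and 92) at 756 CPM (683 to 835) and 1250 CPM (1128 to 1382). T-cell-like nuclei followed at 178 and 385 CPM, and fibroblast-like and astrocyte-like nuclei stood at 111 and 188 CPM and at 109 and 152 CPM. In excitatory-neuron-like nuclei Il1r1 was at 4.74 and 6.63 CPM. The signal transducer Il6st was also highest in endothelial-like nuclei (332 and 394 CPM) and then in fibroblast-like nuclei, where it was at 182 CPM in both libraries. Il17rd and Il31ra had the same highest class, with 36.7 and 68.9 CPM and with 28.9 and 42.7 CPM, but rested on at most 21 UMIs, and Il31ra barely differed from fibroblast-like nuclei in the control-labelled library (28.4 CPM).

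Il33 was highest in oligodendrocyte-like nuclei at 623 CPM (562 to 688) and 606 CPM (550 to 667), with a UMI in 57.8% and 63.2% of them. Fibroblast-like nuclei came next at 135 CPM (129 to 141) and 162 CPM (156 to 169), and astrocyte-like nuclei were at 23.3 and 22.9 CPM. Within fibroblast-like nuclei Il33 was highest in the late-inner-like subcluster (264 and 294 CPM) and lower in the leptomeningeal-like subclusters (58.5 and 69.2 CPM, and 48.3 and 58.3 CPM). Il1rl1, the receptor that binds Il33, had 80 UMIs over all 4 matrices, and its highest class, T-cell-like nuclei, held 13 and 3 of them (52.6 and 16.0 CPM). Il1rap, the co-receptor shared by Il1r1 and Il1rl1, was highest in oligodendrocyte-like nuclei too (507 and 445 CPM).

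Fibroblast-like nuclei (3970 and 3986) were the highest class for the IL-11 receptor Il11ra1 (41.4 and 63.7 CPM). They were also highest for Il17rc (19.9 and 17.9 CPM), an IL-17 receptor chain. For Il11ra1 they stood 1.43 times (0.86 to 2.57) and 1.62 times (0.92 to 3.14) above endothelial-like nuclei, which held 15 and 12 UMIs. An unnamed lesional cluster that entered no comparison stood higher for Il11ra1, at 60.6 and 98.3 CPM. Il11ra1 shares a strand and bases with Galt and has the close copy Il11ra2, so its counts may include reads of either. Within fibroblast-like nuclei Il11ra1 was at 94.6 and 113 CPM in the late-inner-like and at 18.8 and 25.7 CPM in the larger leptomeningeal-like subcluster, and Il16 ran the other way, with 37.0 and 31.5 CPM against 71.6 and 80.8 CPM. Il17d was highest in oligodendrocyte-precursor-like nuclei (50.8 and 40.6 CPM). Il18 had no clear leading class, with 72.1 and 56.2 CPM in astrocyte-like, 61.4 and 58.9 CPM in oligodendrocyte-precursor-like and 58.5 and 60.1 CPM in oligodendrocyte-like nuclei. The other 23 members stayed under 10 UMIs in their highest lesional class in at least 1 library, among them the ligands Il6 (88 UMIs in all 4 matrices), Il11 (75), Il5 (74) and Il4.

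Il1rapl1 and Il1rapl2 made up most UMIs of the family, 408158 and 83300 of the deposited UMIs. Il1rapl1 was at 3401 and 2929 CPM in lesional excitatory-neuron-like nuclei, 3342 and 3302 CPM in inhibitory-neuron-like nuclei and 2199 and 2178 CPM in oligodendrocyte-precursor-like nuclei. It was also listed at 116 and 144 CPM in fibroblast-like nuclei and at 155 and 146 CPM in myeloid-like nuclei, classes whose excitatory neuron markers stood at 83.6 to 128 CPM. How much of the Il1rapl1 outside neural classes was free RNA was not tested.

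Across parenchymal neuronal clusters with at least 50 nuclei in both libraries the paralogs had different patterns. Il1rapl1 ranged from 1797 and 1695 CPM in the Slc26a4-led excitatory cluster to 4109 and 4185 CPM in the Gm57038-led excitatory cluster and 4372 and 4452 CPM in the inhibitory cluster led by 6330411D24Rik. In the same Gm57038-led cluster Il1rapl2 was at 26.2 and 21.6 CPM, its lowest value, whereas it stood at 1561 and 1210 CPM in the excitatory cluster that it led itself and at 1349 and 1511 CPM in the 6330411D24Rik-led cluster. Il1rapl2 differed between the libraries in inhibitory clusters, with 589 and 165 CPM in the Gm10754-led cluster of 111 and 126 nuclei and 470 and 980 CPM in the Adarb2-led cluster of 282 and 312 nuclei, in opposite directions. Drd2 and Rgs9 were also among the leading genes of the Gm10754-led cluster. Neither cluster was split further or by mouse, and the part of neuron subtypes in these differences was not tested.

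**Figure D2:**
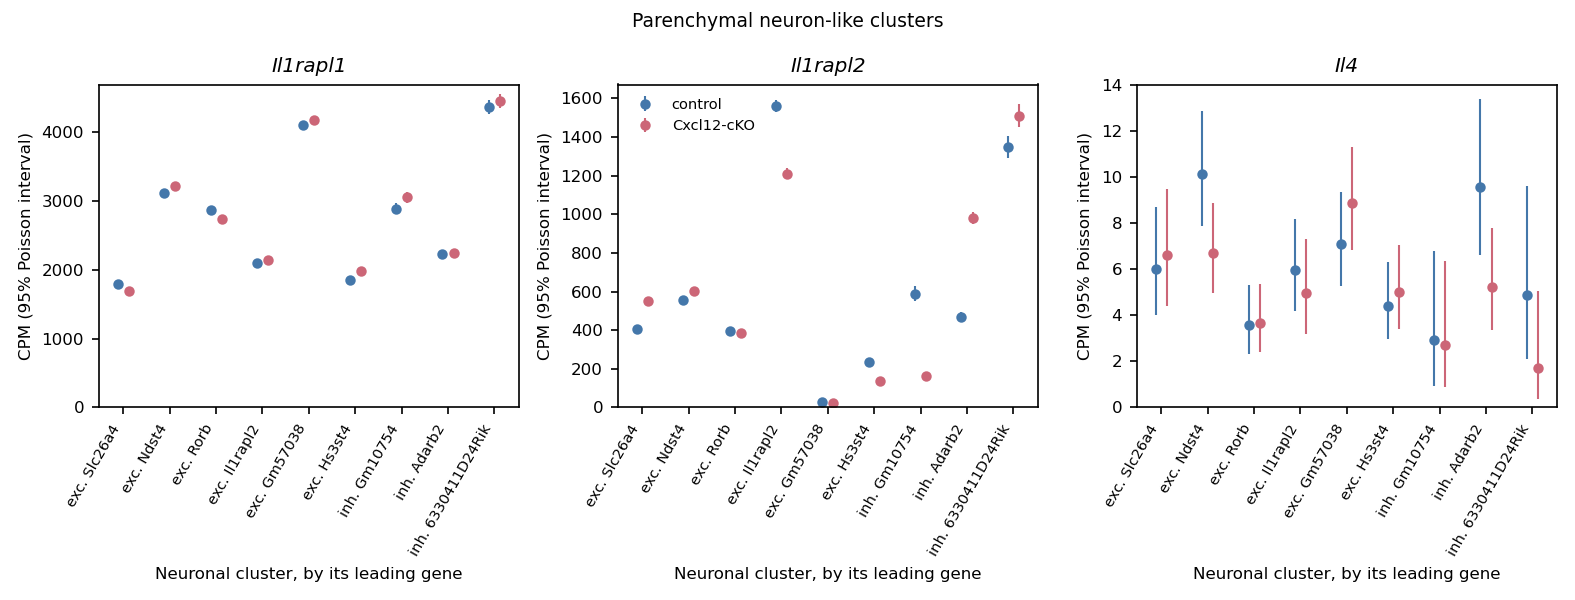
CPM of Il1rapl1, Il1rapl2 and Il4 in parenchymal neuron-like clusters with at least 50 nuclei in both libraries (horizontal axis, named by leading gene), with exact 95% Poisson intervals. Il1rapl2 is lowest in the Gm57038-led cluster (26.2 and 21.6 CPM), where Il1rapl1 is among its highest (4109 and 4185 CPM).

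The comparison of the libraries asked whether member levels differed between the genotype labels within a class. A member was past the fold with at least 20 UMIs over both sums, at least a 2-fold ratio and a 95% interval of the ratio without 0 on the log2 scale. Over 12 class and region comparisons, 19 of 276 member and class pairs were past the fold, from 16 members, and 3 members had too few UMIs in every comparison. In fibroblast-like nuclei 1 of 39 members was past the fold (background 1.87% of genes), in myeloid-like nuclei 3 of 35 (1.99%) and in T-cell-like nuclei 2 of 17 (6.11%). Dendritic-like nuclei had 3 of 21 (7.88%), astrocyte-like 2 of 29 (2.91%), endothelial-like 1 of 17 (4.45%), oligodendrocyte-like 2 of 11 (4.11%) and oligodendrocyte-precursor-like 1 of 6 (4.33%). Lesional excitatory-neuron-like nuclei had 0 of 23 (2.22%) and inhibitory-neuron-like nuclei 0 of 10 (6.8%), whereas their parenchymal counterparts had 2 of 43 (1.58%) and 2 of 25 (1.43%). The median log2 ratio of members was 0.08 in fibroblast-like and -0.10 in myeloid-like nuclei, beside 0.00 and -0.01 over all genes tested.

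**Figure D3:**
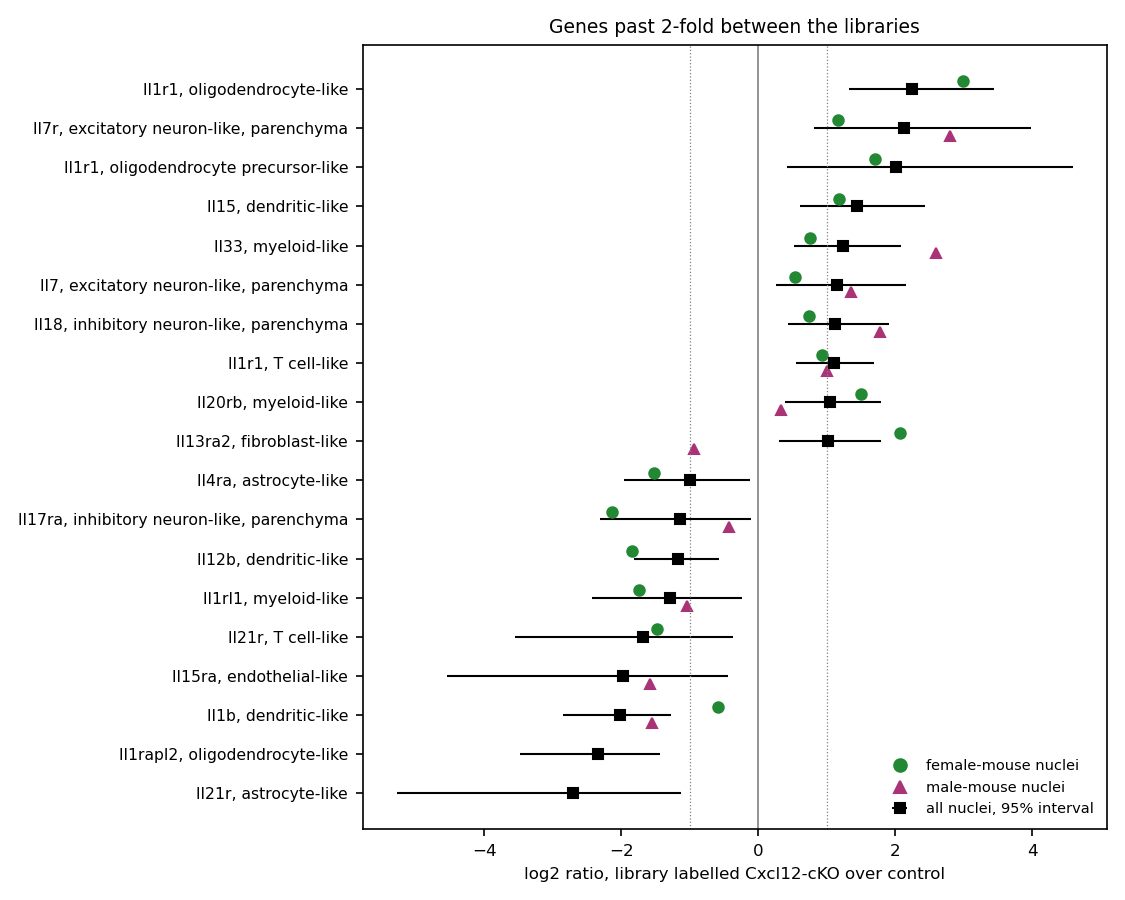
Log2 ratios (horizontal axis, library labelled Cxcl12-cKO over control) of the 19 member and class pairs past 2-fold, for all nuclei with 95% intervals (squares) and for female-mouse and male-mouse nuclei with at least 10 UMIs (circles and triangles). Il13ra2 in fibroblast-like nuclei is at 2.06 in female-mouse and -0.94 in male-mouse nuclei.

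Il1r1 was past the fold in 3 classes and higher in the Cxcl12-cKO-labelled library in each. In T-cell-like nuclei it had 44 and 72 UMIs, a log2 ratio of 1.11 (0.55 to 1.69), with 0.93 in female-mouse and 1.00 in male-mouse nuclei, while endothelial markers in that class stood at 238 and 144 CPM and fibroblast markers at 1572 and 834 CPM. Oligodendrocyte-like nuclei had 10 and 56 Il1r1 UMIs, of which 24 came from 1 nucleus, and oligodendrocyte-precursor-like nuclei 3 and 18, of which 10 came from 1 nucleus. In endothelial-like nuclei, the highest class, the ratio did not reach 2-fold in all nuclei. It was 598 and 1412 CPM in the female-mouse and 1283 and 1552 CPM in the male-mouse nuclei.

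In fibroblast-like nuclei Il1r1 stood at 111 and 188 CPM, a log2 ratio of 0.76 (0.67 to 0.86) that was not past the fold, and the mice differed. Female-mouse nuclei were at 79.8 and 298 CPM, a log2 ratio of 1.90 (1.75 to 2.06). Male-mouse nuclei were at 137 and 120 CPM, a log2 ratio of -0.19 (-0.34 to -0.042). So 1 of the 4 mice, the female of the Cxcl12-cKO-labelled library, stood above the other 3. Female over male nuclei, 0 of 30 members were past the fold among fibroblast-like nuclei of the control-labelled library (background 2.25%) and 2 of 30, Il1r1 and Il13ra2, in the Cxcl12-cKO-labelled library (2.3%). Mouse, sex and library cannot be told apart here.

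By subcluster, Il1r1 in late-inner-like nuclei was at 113 (89.0 to 141) and 134 CPM (116 to 154) in the female and male mouse of the control-labelled library, and at 495 (463 to 530) and 177 CPM (160 to 196) in those of the Cxcl12-cKO-labelled library. Cxcl12 in the same nuclei was at 126, 148, 474 and 234 CPM in that order. The highest subcluster for Il1r1 was the smaller leptomeningeal-like one, with 402 and 454 CPM, and there the mice of the control-labelled library differed as well, with 167 CPM in the female and 538 CPM in the male, against 616 and 278 CPM in those labelled Cxcl12-cKO. The unnamed subcluster led by Prmt8 was at 90.6 and 88.8 CPM and varied little between mice, from 82.8 to 113 CPM.

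Il13ra2, a decoy receptor for IL-13, was the 1 member past the fold in fibroblast-like nuclei, with 24 and 51 UMIs (1.75 and 3.55 CPM) and a log2 ratio of 1.01 (0.30 to 1.79). Of the UMIs in the Cxcl12-cKO-labelled library, 26 lay in the 222 female-mouse nuclei of the smaller leptomeningeal-like subcluster (36.8 CPM, 24.0 to 53.9), and 11 lay in 1 nucleus. The male mouse of that library had none there among 121 nuclei (exact interval up to 8.99 CPM).

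**Figure D4:**
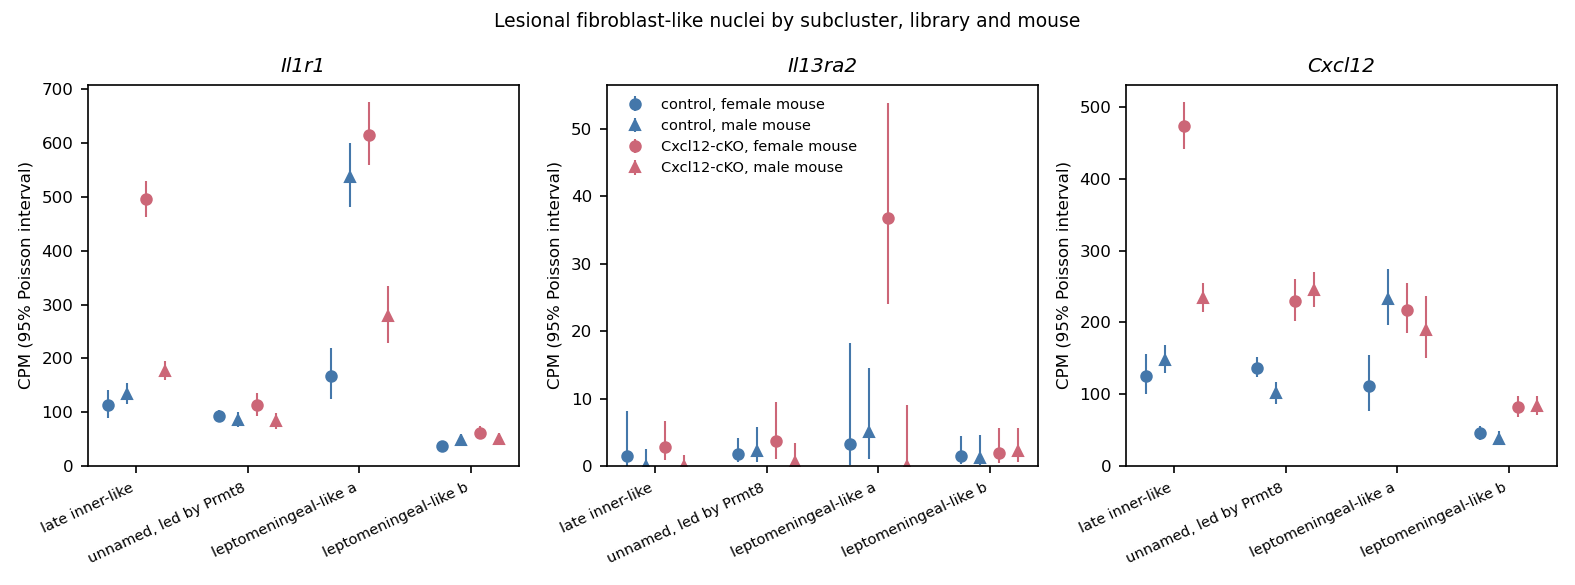
CPM of Il1r1, Il13ra2 and Cxcl12 in the 4 subclusters of lesional fibroblast-like nuclei, by library (colour) and mouse (circles female, triangles male), with exact 95% Poisson intervals. In late-inner-like nuclei the female mouse labelled Cxcl12-cKO is highest for Il1r1 (495 CPM) and Cxcl12 (474 CPM).

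A list of 36 genes of interleukin signalling, among them JAK and STAT genes, MyD88-pathway adaptors and the receptors Osmr and Lifr, was counted beside the family. In fibroblast-like nuclei 30 were tested and none was past the fold (background 1.87% of genes). In myeloid-like nuclei 30 were tested (background 1.99%). There the IL-17 receptor adaptor Traf3ip2 was higher in the Cxcl12-cKO-labelled library, and Stat4, the IL-12 signal transducer, and Lifr were lower. Among T-cell-like nuclei 0 of 16 passed (6.11%). In the other comparisons of the libraries 0 to 2 passed of 10 to 30 tested (backgrounds of 1.43% to 7.88%). Between regions, 1 was higher and 2 were lower in the lesion of 28 tested in excitatory-neuron-like nuclei labelled control, and 0 and 1 of 27 in those labelled Cxcl12-cKO. In inhibitory-neuron-like nuclei 1 was higher and 4 were lower of 16 tested, and 2 and 1 of 17. Traf3ip2 was among those lower in the lesion in all 4, as were 4.38% of the 13154 genes tested in all 4. In single comparisons 2.61% to 3.18% of all genes tested were higher and 10.3% to 12.8% were lower in the lesion.

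Among myeloid-like nuclei Il33 had 19 and 70 UMIs (5.03 and 12.1 CPM), a log2 ratio of 1.24 (0.51 to 2.08). Of these UMIs, 10 and 47 lay in an unnamed subcluster of 105 and 144 nuclei led by Ebf1, Prrx1 and Tcf7l1, in which 25.7% of nuclei mixed Xist and Y-linked UMIs, and its Il33 stood at 29.8 and 73.4 CPM. The border-associated-macrophage-like subcluster held 6 and 10 Il33 UMIs. With classes taken from each nucleus's own marker UMIs the log2 ratio turned to -0.45. Fibroblast markers in the whole class stood at 663 and 507 CPM and oligodendrocyte markers at 131 and 147 CPM. Il20rb, a receptor chain for IL-20 family cytokines, had 24 and 77 UMIs, a log2 ratio of 1.04 (0.39 to 1.79). The Il33 receptor Il1rl1 was lower, with 21 and 13 UMIs and a log2 ratio of -1.29 (-2.43 to -0.25). Female over male nuclei, 3 of 30 members (Il7r, Il3ra and Il1b) were past the fold among myeloid-like nuclei of the control-labelled library (3.8%) and 1 of 29, Il1rl2, in the Cxcl12-cKO-labelled library (2.38%).

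In dendritic-like nuclei Il15 was higher in the Cxcl12-cKO-labelled library, with 14 and 57 UMIs in 14 and 32 nuclei and a log2 ratio of 1.43 (0.61 to 2.43). Il1b and Il12b were lower, with log2 ratios of -2.02 (-2.85 to -1.28) and -1.18 (-1.82 to -0.58). Single nuclei held 23 of 56 Il1b UMIs and 29 of 59 Il12b UMIs in the control-labelled library. Without the nucleus with the most UMIs in each library the log2 ratio was -1.57 for Il1b and -0.76 for Il12b, the latter under the fold. With classes taken from each nucleus's own marker UMIs they turned to 0.69 and 0.27, and the male-mouse nuclei (16 and 27) held 0 and 6 Il12b UMIs.

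The IL-21 receptor Il21r was lower in the Cxcl12-cKO-labelled library in T-cell-like nuclei (23 and 5 UMIs) and astrocyte-like nuclei (20 and 3 UMIs). It was at 82.3 and 61.6 CPM in myeloid-like and 50.6 and 81.4 CPM in dendritic-like nuclei. Astrocyte-like nuclei carried myeloid markers at 192 and 146 CPM, and their part in the Il21r values was not tested. Il4ra in astrocyte-like nuclei had 31 and 17 UMIs, 16 of the 31 in 1 nucleus, and Il1rapl2 in oligodendrocyte-like nuclei 51 and 11, with 40 of the 51 in 1 nucleus. Il15ra in endothelial-like nuclei had 23 and 3 UMIs. In parenchymal neurons Il18 had 23 and 60 UMIs (inhibitory), Il17ra 23 and 12 (inhibitory), Il7 15 and 33 (excitatory) and Il7r 5 and 23 (excitatory), all at under 8 CPM.

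The comparison of regions was possible for neurons, which alone had at least 50 nuclei in both regions. Over 4 comparisons, 27 of 111 member and class pairs were past the fold, from 16 members. Lower in the lesion were 6 of 36 members in excitatory-neuron-like nuclei labelled control (background 12.8%) and 3 of 36 in those labelled Cxcl12-cKO (10.3%), 3 of 19 in inhibitory-neuron-like nuclei labelled control (10.8%) and 3 of 20 in those labelled Cxcl12-cKO (10.8%), shares near the background. The median log2 ratio over all genes was itself between -0.14 and -0.06 in these comparisons, and between -0.10 and 0.07 over members. Higher in the lesion were 5 of 36 (3.08%) and 4 of 36 (2.61%) excitatory and 1 of 19 (3.18%) and 2 of 20 (2.73%) inhibitory pairs. Lesional neurons were shallower, with medians of 13947 and 12831 UMIs against 17457 and 18407 for excitatory nuclei.

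The 3 members lower in the lesion in all 4 comparisons were the ligand Il4, the IL-1 decoy receptor Il1r2 and Il12rb2. They were 3 of 18 members with enough UMIs in all 4 (16.7%), beside 4.38% of the 13154 genes tested in all 4. Their promoters are printed because these members carry the lower lesional values, and each run is the 250 bases before a RefSeq gene start in GRCm38.p6, 5′ to 3′ on the gene's strand, with capitals marking a match to TTCNNNGAA, the spaced half-sites that STAT factors bind.
Il4 chr11:53617339-53617588 (- strand): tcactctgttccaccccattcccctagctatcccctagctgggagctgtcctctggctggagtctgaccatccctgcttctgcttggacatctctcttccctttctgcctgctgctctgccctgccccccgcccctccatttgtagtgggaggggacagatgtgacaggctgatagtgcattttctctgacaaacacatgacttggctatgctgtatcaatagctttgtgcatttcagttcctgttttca
Il1r2 chr1:40085843-40086092 (+ strand): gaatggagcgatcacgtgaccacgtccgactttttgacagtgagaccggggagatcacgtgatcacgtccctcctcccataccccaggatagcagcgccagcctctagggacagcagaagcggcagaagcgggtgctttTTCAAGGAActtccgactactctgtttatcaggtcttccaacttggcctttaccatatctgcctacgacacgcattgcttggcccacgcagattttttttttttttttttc
Il12rb2 chr6:67376189-67376438 (- strand): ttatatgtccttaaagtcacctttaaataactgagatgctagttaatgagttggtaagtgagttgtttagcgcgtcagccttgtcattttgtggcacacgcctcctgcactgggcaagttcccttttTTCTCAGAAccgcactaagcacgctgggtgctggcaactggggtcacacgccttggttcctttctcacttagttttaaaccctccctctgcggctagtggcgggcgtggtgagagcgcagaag
The match began 111 bases before the start in Il1r2 and 123 bases before it in Il12rb2. Il4 has 2 RefSeq starts, and neither had a match. The run shown for Il4 lies before the start further downstream on the minus strand. The run before the upstream start, chr11:53618666-53618915, is not shown. Of 63 RefSeq promoters of 49 members, 5 had a match (7.94%; Il7r, Il31ra, Il12rb2, Il1r2 and Il18r1), against 7.02% of all 32851 promoters of that length. The AP-1 letters TGANTCA matched 11 of the 63 (17.5%, against 6.75%) and an NF-kB motif, searched on both strands, 13 (20.6%, against 17.6%). Neither was found in the printed promoters. The STAT and AP-1 letters read the same on both strands, a match is no evidence of binding, and this window leaves out other regulatory sequence.

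Il4 was at 6.11 CPM (5.37 to 6.93) and 5.90 CPM (5.16 to 6.71) in parenchymal excitatory-neuron-like nuclei and at 1.45 CPM (0.72 to 2.59) and 1.90 CPM (0.70 to 4.12) in lesional ones. In inhibitory-neuron-like nuclei Il4 was at 6.81 and 3.92 CPM in the parenchyma and at 1.82 CPM and 0 UMIs in the lesion. In place of the 0 UMIs, 3 UMIs would give 2.28 CPM, 1.72-fold under the parenchymal value. The exact interval for 0 UMIs reached 2.81 CPM. Lesional values lay below parenchymal ones in both libraries. In parenchymal inhibitory-neuron-like nuclei the log2 ratio between the libraries was -0.79 (-1.49 to -0.12), under the fold.

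Il1r2 was lower in lesional excitatory-neuron-like nuclei, from 3.81 to 1.05 CPM and from 4.59 to 1.58 CPM, and Il12rb2 from 5.26 to 1.71 CPM and from 5.03 to 1.90 CPM. All of these are low levels, from at most 13 lesional UMIs. Il1r2 shares a strand and bases with Gm37347 in the annotation, so its counts may include reads of that gene. On the other strand Il1r2 overlaps Gm16894 and Il12rb2 overlaps Serbp1. Neuronal clusters were mixed differently in the regions, since the Ndst4-led excitatory cluster, with the highest Il4 in the control-labelled library (10.1 CPM), made up 15.6% and 16.3% of parenchymal but 3.0% and 1.3% of lesional excitatory-neuron-like nuclei. With each parenchymal cluster weighted by its share of lesional UMIs, a value chosen after the data were seen, parenchymal Il4 was at 5.55 and 5.92 CPM, Il1r2 at 3.61 and 4.35 CPM and Il12rb2 at 5.61 and 4.76 CPM. In inhibitory-neuron-like nuclei, of which the Gm10754-led cluster made up 22.7% and 23.4% in the parenchyma and 8.70% and 38.0% in the lesion, the same weighting gave 7.30 and 3.42 CPM for Il4, 7.88 and 7.04 CPM for Il1r2 and 8.14 and 5.57 CPM for Il12rb2. The lesional intervals reached 5.32 and 2.81, 4.39 and 4.24, and 5.32 and 5.49 CPM in that order. In male-mouse nuclei of the Cxcl12-cKO-labelled library, of which 39 were lesional and excitatory-neuron-like, the log2 ratio turned to 0.69 for Il12rb2, and in inhibitory-neuron-like nuclei to 0.51 for Il1r2.

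Il33 was the 1 member higher in lesional excitatory-neuron-like nuclei of both libraries, from 0.73 to 2.37 CPM and from 1.33 to 3.16 CPM, but in male-mouse nuclei of the Cxcl12-cKO-labelled library its log2 ratio was -0.44. Il1r1 was higher in lesional inhibitory-neuron-like nuclei of both, from 3.33 to 7.89 CPM and from 4.66 to 11.4 CPM. These lesional levels rested on 10 to 18 UMIs and were far under the same gene's level in its highest class. The others higher in excitatory-neuron-like nuclei were Il15, Il10rb, Il13ra1 and Il1rl2 in the control-labelled library and Il6ra, Il10ra and Il7r in that labelled Cxcl12-cKO, most of them members whose highest class was myeloid-like. Myeloid markers stood at 24.2 and 37.3 CPM in lesional and 13.4 and 17.5 CPM in parenchymal excitatory-neuron-like nuclei. Fibroblast markers stood at 165 and 94.8 CPM in lesional and 34.1 and 34.3 CPM in parenchymal excitatory-neuron-like nuclei. In inhibitory-neuron-like nuclei fibroblast markers stood at 260 and 120 CPM in the lesion and 47.5 and 43.3 CPM in the parenchyma. The part of either marker list in the higher lesional values was not tested.

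**Figure D5:**
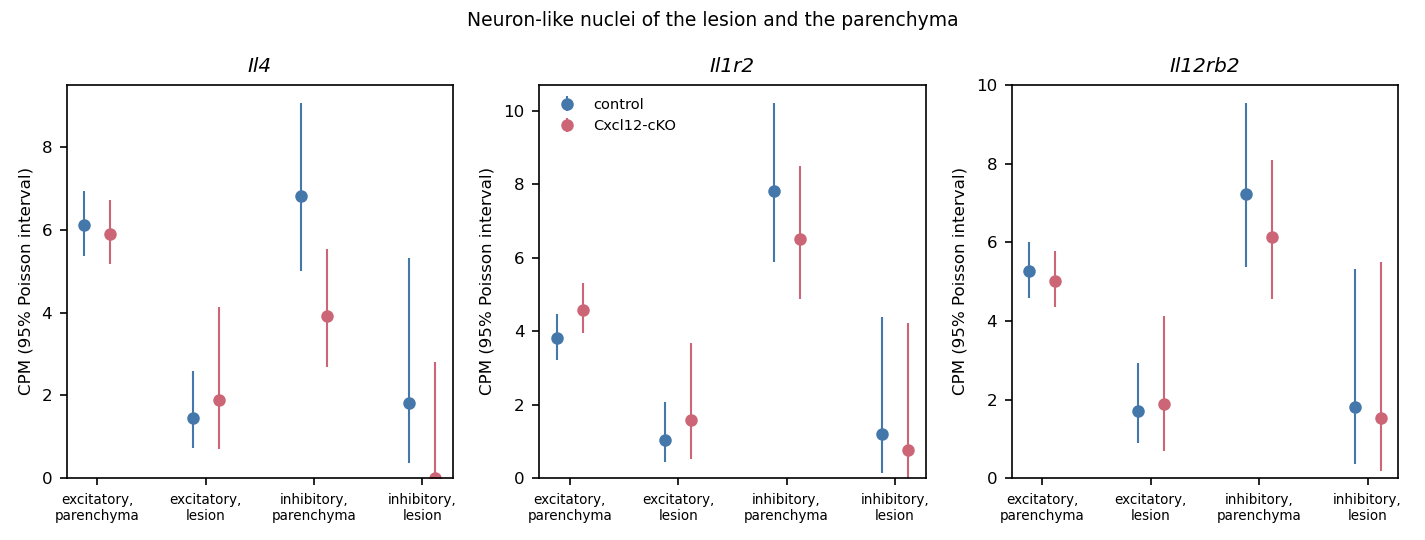
CPM of Il4, Il1r2 and Il12rb2 in parenchymal and lesional neuron-like nuclei of both libraries, with exact 95% Poisson intervals. Lesional values, 0 to 1.90 CPM, lie below the parenchymal values, 3.81 to 7.82 CPM, in both libraries and both neuron classes.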

How the data were processed

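Single-nucleus RNA libraries from 2 genotypes, with lesion and parenchyma nuclei tagged and split by the authors, were read from 4 deposited matrices. The deposited values were UMI counts per gene and nucleus, which the authors made with Cell Ranger 9.0.0 on GRCm39. The sources used here do not say whether intronic reads were counted.

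Of 23489 barcodes, 1746 were removed for lying in the outer 2.5% by UMIs or genes or the top 2.5% by mitochondrial share, and no doublets were removed. Libraries shared between 1 and 22 barcodes. UMIs of both sexes, a sign of mixed nuclei in a pool of 1 male and 1 female mouse, occurred in 9.75% to 14.3% of nuclei. Nuclei were clustered with scanpy 1.11.5 (3000 variable genes, 30 components, Leiden resolution 1.0) without members, sex-linked and mitochondrial genes. Clusters were named from marker lists, with naming thresholds set after the clusters were seen. Clusters that met no name stayed unnamed. Nuclei were assigned to a mouse by Xist and Y-linked UMIs.

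UMIs were summed per class, region and library and given as CPM with exact Poisson 95% intervals. Log2 ratios had 0.5 added to each sum and exact conditional binomial intervals. With 1 library a genotype there was no test. Past the fold meant at least 20 UMIs over both sums, at least 2-fold and an interval without 0. Shares of nuclei carry exact Clopper-Pearson intervals and were also computed after thinning to 1000 UMIs. On simulated counts, 99.0% of 4-fold changes were called in the fibroblast-like class (16405 genes) and 98.5% in the dendritic-like class (6258 genes). Of unchanged genes, 0.54% and 1.75% were called. The simulated counts held counting error only, without UMIs gathered in single nuclei, and changes of 2-fold were not simulated.

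Members and lists were chosen with earlier results of these data known. Genes named for levels were, in each role group, up to 6 members with the most UMIs and those at least 4 times the next class. Genes named for differences were those past the fold and those with the most UMIs in the class, and Il23r shares, Il6ra by subcluster and values by mouse were chosen after values were seen. Gene overlaps came from GENCODE M21, in which 62 members matched, and promoters from RefSeq (GRCm38.p6).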

Additional observations from a re-analysis of the deposited data

Results flagged for a closer look

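For 8 member and class pairs the log2 ratios of the Cxcl12-cKO-labelled over the control-labelled library ran in opposite directions in the female and the male mouse, with both intervals of counting error away from 0. The difference between the mice was not tested, since each genotype had 1 mouse of each sex. The share of all genes that met this rule was not computed, so the count is not read as a trait of the members. Genes with many UMIs, such as Il1rapl1, can meet it at small ratios. The widest gaps were in classes with few nuclei. Il12rb2 in T-cell-like nuclei was at -2.37 in female-mouse and 1.73 in male-mouse nuclei, and Il1rapl1 in dendritic-like nuclei at 1.28 and -3.01.

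Il1r1 in fibroblast-like nuclei, with 1410 to 1662 nuclei of each mouse, was at 1.90 in female-mouse and -0.19 in male-mouse nuclei. In lesional inhibitory-neuron-like nuclei Il1rapl1 was at 0.13 and -0.44 and Il1rapl2 at -0.71 and 0.39. In parenchymal excitatory-neuron-like nuclei Il1rapl1 was at 0.090 and -0.057 and Il1rapl2 at -0.34 and 0.072. Il6st in parenchymal inhibitory-neuron-like nuclei was at -0.57 and 0.66.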

How the results depend on the processing

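No paired analysis was possible because each genotype had 1 library. Under 16 alternatives, 2 of them chosen after seeing the data, 703 log2 values of 46 named differences and of Il1r1 in fibroblast-like nuclei were recomputed, of which 526 kept their direction and side of the fold, 163 lost the fold, 2 gained it and 12 reversed. The 10 members set apart in 1 class became 6 with classes from each nucleus's own markers, 3 in female-mouse and 3 in male-mouse nuclei, and 4 by shares after thinning. The 33 with the same highest class became 20, 15 and 19 in female-mouse nuclei, male-mouse nuclei and by thinned shares. The 19 pairs past the fold between libraries became 9 in male-mouse nuclei, 38 with each nucleus weighted alike, 10 at a minimum of 50 UMIs and 38 at a fold of 1.5, and the 27 between regions became 14 in female-mouse and 4 in male-mouse nuclei. Smaller sums lowered the counts for each mouse by construction. With each nucleus weighted alike no interval was required, so that count used a looser rule than the 19. Reversed log2 ratios with classes from own markers were 0.69 for Il1b and 0.27 for Il12b in dendritic-like and -0.45 for Il33 in myeloid-like nuclei. Male-mouse nuclei alone gave 0.84 for Il4ra in astrocyte-like, 2.91 for Il12b in dendritic-like (0 and 6 UMIs), -0.94 for Il13ra2 and -0.19 for Il1r1 in fibroblast-like and 0.77 for Il1rapl2 in oligodendrocyte-like nuclei. Between regions in the Cxcl12-cKO-labelled library they gave -0.44 for Il33 and 0.69 for Il12rb2 (excitatory) and 0.51 for Il1r2 (inhibitory). Weighting nuclei alike gave 0.28 for Il4ra in astrocyte-like nuclei. The cause of these changes was not tested.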

Other observations

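A lesional cluster of 510 and 158 nuclei led by Postn, Aspn and Tnn, genes of the extracellular matrix, met no name and entered no comparison. Its markers came closest to the bone lineage list, and at Leiden resolution 0.5 the cluster led by Tnn and Aspn (346 and 82 lesional nuclei) met the bone-lineage-like name. It carried Il6st at 142 and 158 CPM, Il1r1 at 99.7 and 121 CPM and Il11ra1 at 60.6 and 98.3 CPM. These Il11ra1 values were above those of fibroblast-like nuclei (41.4 and 63.7 CPM), the highest class compared. In the unnamed cluster Il4ra was at 55.6 and 77.7 CPM and Il13ra1 at 28.5 and 77.7 CPM. Il13ra1 pairs with Il4ra in the receptor for IL-4 and IL-13.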
